A study of Mus musculus with 15 samples.

Results

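Cdh1, Cdh2, Epcam and Vim were taken as 4 of the 19938 genes with a probe set of their own. Each had 1 such probe set (Cdh1 10575052, Cdh2 10457644, Epcam 10447383 and Vim 10469322), and 0 probe sets shared with another gene carried these names. RNA was measured on 15 whole-transcript arrays of mouse ventral prostate epithelial cells of the FVB strain, 3 arrays in each of 5 groups. The control group held primary epithelial cultures with no transduced gene. The other groups held primary cultures transformed into stable lines with c-myc (Myc group), neuT, an activated Erbb2 receptor (NeuT group), ha-ras (Ras group) or v-src (Src group). Per the series' design text there were 3 lines for each oncogene. The sample labels do not state whether the 3 arrays of an oncogene group were these 3 lines or repeat cultures. The labels give no vector or promoter for the oncogenes, no animal age, and no statement that the 3 controls came from separate animals, so the p-values cover only how far these samples varied, which may be technical. Lines were grown in DMEM with 10% serum, whereas controls were grown in a primary epithelial medium and moved to DMEM with serum for the last night. This difference in culture is part of every comparison with control and of none between oncogenes.

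E-cadherin, encoded by Cdh1, joins neighbouring epithelial cells at adherens junctions, where its tail binds catenins that connect it to actin. N-cadherin, encoded by Cdh2, has the same layout and is typical of neural and mesenchymal cells. Epcam is a surface glycoprotein of simple epithelia and of carcinomas, and Vim encodes vimentin, the main intermediate filament of mesenchymal cells. A loss of E-cadherin with a gain of N-cadherin is called the cadherin switch, and it is widely used, with vimentin, as a readout of epithelial-mesenchymal transition. Cultured epithelial cells can also make some vimentin.

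Repressors of the Snail and Zeb families bind E-box motifs in promoters of epithelial genes, so promoter sequences of Epcam and Vim are shown with this motif marked. RefSeq promoter entries (GRCm38.p6) are given for 2 of the 4 genes, Epcam and Vim. Cdh1 had no match. Cdh2 was left out of the search, so whether it has an entry was not tested. The 250 bases before each start are given 5′ to 3′ on the plus strand, Epcam at chr17:87635729-87635978 and Vim at chr2:13574061-13574310. Capitals mark CAGGTG or its reverse complement CACCTG.
Epcam: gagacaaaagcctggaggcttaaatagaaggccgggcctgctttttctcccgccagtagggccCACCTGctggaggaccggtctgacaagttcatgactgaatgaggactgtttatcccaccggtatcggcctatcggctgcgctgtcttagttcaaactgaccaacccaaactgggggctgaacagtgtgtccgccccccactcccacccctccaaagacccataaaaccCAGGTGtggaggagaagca
Vim: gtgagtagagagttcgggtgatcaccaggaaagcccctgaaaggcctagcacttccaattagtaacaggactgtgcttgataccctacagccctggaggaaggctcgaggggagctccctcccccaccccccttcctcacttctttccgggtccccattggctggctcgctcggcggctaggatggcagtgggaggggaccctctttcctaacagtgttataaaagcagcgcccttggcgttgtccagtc
The Epcam stretch held 2 matches, starting 187 and 19 bases before the start, and the Vim stretch held 0. Among 32851 promoter entries of this length, 17.2% held at least 1 match and 2.06% held 2 or more. A match is a description of the letters, not a binding site.

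Values are log2 expression as deposited. Array medians lay between 6.19 and 6.32, and 6.47, the median of all gene values, serves below as a mark of dim signal: folds with a side under it are unsure in size, since background was not measured here. Erbb2 was higher in the NeuT arrays than in control (9.50 against 7.80, adjusted p = 4.27e-07). The endogenous Myc probe set was lower in the arrays labelled Myc (8.78 against 9.70, adjusted p = 0.00207), and the Src probe set gave 7.08 in Src against 7.04 in control (adjusted p = 0.743), so directions for those 2 groups rest on their labels. Ras had no probe set of its own here, so the Ras group rests on its label too. Control array 3 carried kidney tubule transcripts, with a mean of 9.40 over 12 tubule markers against 5.72 and 5.83 in control arrays 1 and 2. For this reason the 4 genes are also given without it. Its Cdh2, a cadherin that tubule cells also make, was at 6.03 against a mean of 6.18 in the other controls, and its Cdh1 was lower, at 10.86 against 11.32. Of 11 prostate epithelial markers, 10 were at or above 6.47 in control, 9 in Src, 6 in Myc, 5 in NeuT and 3 in Ras. Krt5 and Krt8 were at 5.59 and 7.59 in the Ras arrays, against 10.96 and 12.88 in control, while Krt19, another simple epithelial keratin, was at 9.17 against 11.81. The Ras arrays thus lacked the basal keratin Krt5 above the dim mark and kept lower levels of Krt8 and Krt19. Krt5 was under that mark in NeuT as well, at 5.70. In bulk RNA, fewer cells of a type and less RNA per cell cannot be told apart.

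All 4 genes changed in the Ras arrays, both epithelial genes falling and both mesenchymal genes rising. The NeuT arrays gained Cdh2 and Vim while keeping high Cdh1 and Epcam. In the arrays labelled Myc, Cdh1 and Vim fell together and Epcam overlapped control. The Src arrays had lower Cdh1 and Epcam, with no call for Cdh2 or Vim. Of 16 tests against control, 13 had an adjusted p under 0.05 (limma, adjusted over all 19938 genes, no fold minimum). Of all genes, 13.3% to 15.9% rose and 11.6% to 14.2% fell against control. These 4 comparisons share the same 3 control arrays.

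**Figure D1:**
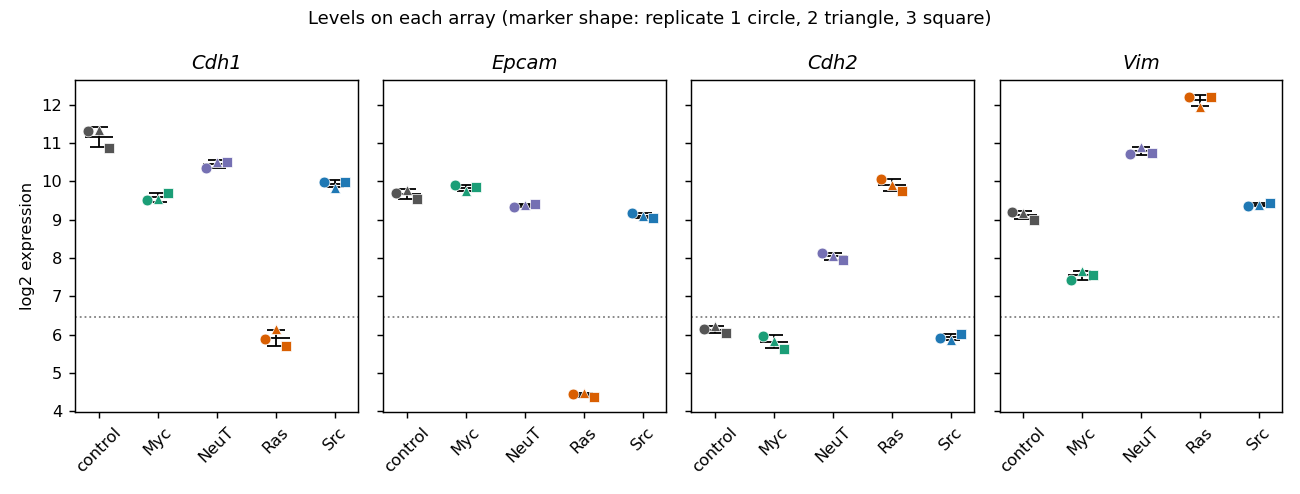
Log2 expression of Cdh1, Epcam, Cdh2 and Vim (y axis) on each of 15 arrays by group (x axis). Points are arrays, bars are the mean ± SD of 3 arrays, and the dotted line is the median of all gene values (6.47). Ras arrays sit at 5.71 to 6.14 for Cdh1 and at 11.94 to 12.19 for Vim.

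Cdh1 was at 11.30, 11.33 and 10.86 on control arrays 1 to 3. It was at 5.88, 6.14 and 5.71 on the Ras arrays. The lowest control array was thus far above the highest Ras array. The Ras mean was 5.91 ± 0.22 (SD, n = 3) against 11.16 ± 0.27, a log2 difference of -5.25 ± 0.13 (SE, adjusted p = 3.24e-12) or 38.1-fold lower, with the Ras side under the dim mark. Arrays labelled Myc were at 9.51, 9.53 and 9.70, a fall of 2.99-fold (log2 difference -1.58 ± 0.13, adjusted p = 7.84e-07). Src arrays were at 9.99, 9.83 and 9.99, which was 2.34-fold lower (-1.22 ± 0.13, adjusted p = 1.21e-05). NeuT arrays, at 10.34, 10.51 and 10.50, had the smallest fall, 1.64-fold (-0.71 ± 0.13, adjusted p = 0.000866). E-cadherin transcripts were therefore lower in every oncogene group, but remained well above the dim mark outside Ras. Without control array 3 the log2 differences were -5.40 in Ras, -1.74 in Myc, -1.38 in Src and -0.87 in NeuT.

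Epcam separated Ras from all other groups. Its Ras values were 4.46, 4.47 and 4.38, and its control values 9.69, 9.78 and 9.53. The Ras mean was 4.44 ± 0.05 (SD, n = 3) against 9.67 ± 0.13, a log2 difference of -5.23 ± 0.08 (adjusted p = 1.07e-14), again with the Ras side dim. Src arrays were at 9.18, 9.09 and 9.05, which was 1.47-fold lower than control (-0.56 ± 0.08, adjusted p = 0.000118). NeuT arrays were at 9.33, 9.38 and 9.42, a fall of 1.22-fold (-0.29 ± 0.08, adjusted p = 0.0119). The NeuT call was lost without control array 2 (adjusted p = 0.0623). The Src and NeuT falls were a small part of the Ras difference. Arrays labelled Myc, at 9.89, 9.75 and 9.85, overlapped the controls (log2 difference 0.16, 95% interval -0.01 to 0.33, adjusted p = 0.152). Cdh1 and Epcam thus did not fall in step outside Ras: the Myc group had the lowest Cdh1 of the other lines and the highest Epcam of all groups.

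Cdh2 was dim in control, at 6.14, 6.22 and 6.03. On the Ras arrays it was at 10.07, 9.90 and 9.75. On the NeuT arrays it was at 8.13, 8.05 and 7.95. Both groups were above 6.47 on every array, and every other array was under it. The rise was 13.7-fold in Ras (log2 difference 3.77 ± 0.10, adjusted p = 6e-12) and 3.76-fold in NeuT (1.91 ± 0.10, adjusted p = 1.26e-08). The 3 control, 3 Src and 3 Myc values spanned 5.63 to 6.22, where array signal is dim. Src arrays were at 5.92, 5.86 and 6.01 (log2 difference -0.20, 95% interval -0.42 to 0.02, adjusted p = 0.163). Arrays labelled Myc were at 5.97, 5.83 and 5.63, and their fall of 0.32 on the log2 scale passed (-0.32 ± 0.10, adjusted p = 0.0282). That call was lost with median centring (adjusted p = 0.0794) and quantile normalization (0.111), with only the groups compared (0.0724), and without control array 1 (0.068), control array 2 (0.0989), Myc array 2 (0.0586) or Myc array 3 (0.134). Without control array 3 the differences were 3.72 in Ras, 1.86 in NeuT and -0.38 in Myc.

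Vim was measured well above the dim mark in every group and moved both ways. Control arrays were at 9.20, 9.16 and 8.99. Ras arrays were at 12.19, 11.94 and 12.19, a rise of 7.93-fold (log2 difference 2.99 ± 0.09, adjusted p = 2.21e-11). NeuT arrays, at 10.72, 10.91 and 10.74, rose 3.18-fold (1.67 ± 0.09, adjusted p = 1.92e-08). The arrays labelled Myc went the other way, at 7.43, 7.67 and 7.54, a fall of 2.97-fold (-1.57 ± 0.09, adjusted p = 3.64e-08). Src arrays were at 9.35, 9.38 and 9.42, and the difference did not pass (log2 difference 0.27, 95% interval 0.06 to 0.47, adjusted p = 0.0509). This value sits at the threshold, and 7 of 24 alternative settings put it under 0.05, with adjusted p from 0.0213 to 0.167. Of those 7, only quantile normalization (0.32) and array weights (0.21) moved the difference itself. Vimentin transcripts and E-cadherin transcripts fell side by side in the Myc group. Without control array 3 the differences were 2.93 in Ras, 1.61 in NeuT, -1.63 in Myc and 0.20 in Src.

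**Figure D2:**
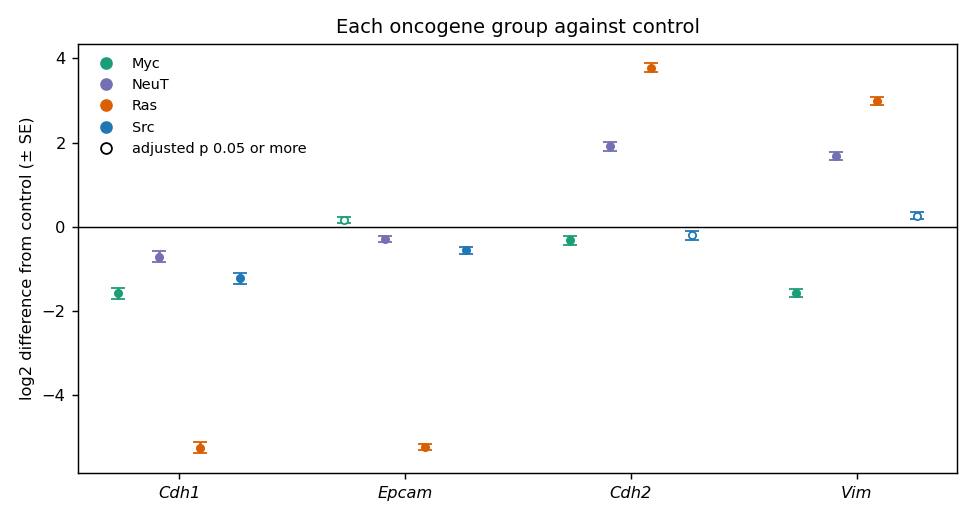
Log2 difference from control (y axis, ± SE from limma) of Cdh1, Epcam, Cdh2 and Vim (x axis) in the 4 oncogene groups. Open points had an adjusted p of 0.05 or more. Ras lies at -5.25 and -5.23 for Cdh1 and Epcam and at 3.77 and 2.99 for Cdh2 and Vim.

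These counts are read against how often any gene was called. In Ras, 2 of the 4 rose and 2 fell, where 13.3% of all genes rose and 14.2% fell. In NeuT, 2 rose and 2 fell, with 15.2% and 11.6% of all genes. For the arrays labelled Myc, 0 rose and 3 fell, against backgrounds of 15.9% and 12.7%. In Src, 0 rose and 2 fell, against 14.2% and 12.2%.

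Differences within an array set both pairs of genes on one scale. Levels of different probe sets cannot be set against each other, so only the change of such a difference from control is read. The difference Cdh2 minus Cdh1 was 9.02 higher (log2) in Ras than in control, 2.62 higher in NeuT, 1.26 higher in Myc and 1.02 higher in Src. In Myc and Src the Cdh2 mean itself was not higher than control. The difference Vim minus Epcam was 8.22 higher in Ras, 1.96 higher in NeuT and 0.83 higher in Src, but changed by -1.73 in Myc. The 2 differences therefore moved in opposite directions in the arrays labelled Myc. These are descriptions of the 4 genes, with no test.

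**Figure D3:**
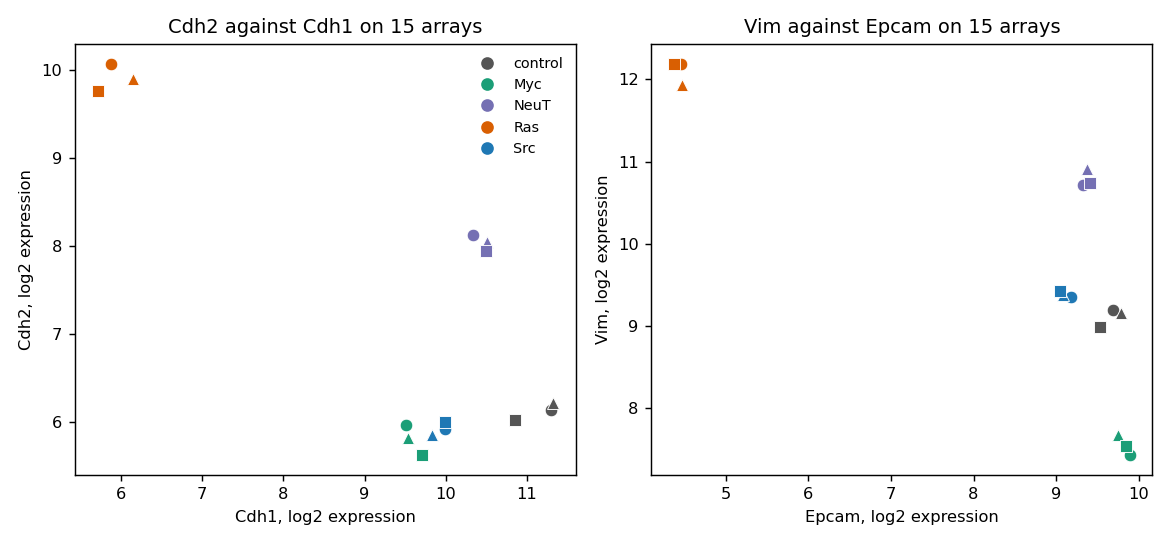
Cdh2 against Cdh1 (left) and Vim against Epcam (right), log2 expression on both axes. Each point is 1 of 15 arrays, coloured by group, with shapes for replicates 1 (circle), 2 (triangle) and 3 (square). Ras arrays lie alone at the upper left of both panels, and NeuT arrays (Cdh2 7.95 to 8.13) lie between them and the other groups at high Cdh1 and Epcam.

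The oncogene groups, grown in the same medium, were also compared with each other, and 22 of 24 tests passed. Ras differed from each other group in all 4 genes. Myc against Ras, NeuT against Ras and Ras against Src had 28.4%, 28.1% and 26.2% of all genes called in either direction. Cdh1 was 3.67 and 4.54 (log2) higher in Myc and NeuT than in Ras, and Epcam 5.39 and 4.94 higher. In Ras against Src the differences were -4.03 for Cdh1 and -4.67 for Epcam. Against NeuT, the group nearest to it in Cdh2 and Vim though not in Cdh1 or Epcam, Ras had more Cdh2 (NeuT against Ras -1.86 ± 0.10, adjusted p = 9.36e-09) and more Vim (-1.32 ± 0.09, adjusted p = 1.37e-07). NeuT differed from Myc and from Src in all 4 genes, where 14.9% and 20.2% of all genes were called. Cdh2 was 4.70-fold higher in NeuT than in Myc (Myc against NeuT -2.23 ± 0.10, adjusted p = 1.03e-08) and 4.32-fold higher than in Src (2.11 ± 0.10, adjusted p = 4.86e-09). Vim was 9.46-fold higher in NeuT than in Myc (Myc against NeuT -3.24 ± 0.09, adjusted p = 1.6e-10). Myc and Src differed in 2 of the 4, with 18.9% of all genes called: Vim was 3.57-fold lower in Myc (-1.84 ± 0.09, adjusted p = 8.55e-09) and Epcam 1.65-fold higher (0.72 ± 0.08, adjusted p = 1.7e-05).

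The order of the group means was control, NeuT, Src, Myc and Ras for Cdh1. Its neighbours Src and Myc did not pass (Myc against Src -0.36, 95% interval -0.64 to -0.08, adjusted p = 0.0765), although 4 of 24 settings called them, among them the fit without control array 3 (adjusted p = 0.0216). NeuT and Src passed (0.51 ± 0.13, adjusted p = 0.0131), and that call was lost without NeuT array 2 (adjusted p = 0.0505), NeuT array 3 (0.0509) or Src array 2 (0.0595). For Epcam the order was Myc, control, NeuT, Src and Ras, with Myc and control not called. NeuT and Src were set apart (0.27 ± 0.08, adjusted p = 0.0248), but not with quantile normalization (adjusted p = 0.206) nor without NeuT array 2 (0.0694), NeuT array 3 (0.0884), Src array 2 (0.0726) or Src array 3 (0.0884). For Cdh2 the order was Ras, NeuT, control, Src and Myc. Control and Src were not called, and Src and Myc overlapped (Myc against Src -0.12, 95% interval -0.34 to 0.10, adjusted p = 0.487). For Vim it was Ras, NeuT, Src, control and Myc, and Src and control were the only neighbours not called. Ras was thus at an end of all 4 orders, while Myc was at the other end for Epcam, Cdh2 and Vim.

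The partners of the cadherins at the junction fell more often than they rose in all 4 line groups. Of 22 catenins and adherens junction adaptors, 15 fell in Ras, 12 in Myc, 9 in NeuT and 8 in Src, and 0, 0, 2 and 1 rose. Their median log2 differences were -0.43, -0.55, -0.33 and -0.28, against 0.02, 0.03, 0.02 and 0.06 over all genes. Of all genes 14.2%, 12.7%, 11.6% and 12.2% fell in these comparisons, so each share that fell in this list was above that of all genes, and 13.3%, 15.9%, 15.2% and 14.2% rose. The count that fell in Src was 14 without control array 3 and also with array weights, and that in NeuT was 16 with array weights. Counts that rose moved by 1 with single arrays: Myc had 1 without control array 2 or 3, Ras had 1 without Ras array 2, and Src had 2 without Myc array 3, Ras array 2 or Ras array 3 and 0 without Src array 3.

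Plakoglobin, encoded by Jup and shared by adherens junctions and desmosomes, was at 6.65 ± 0.17 (SD, n = 3) in Ras and 9.50 ± 0.39 in control (log2 difference -2.85 ± 0.15, adjusted p = 3.2e-09). It was also lower in Myc (-1.27 ± 0.15) and NeuT (-0.77 ± 0.15). Ctnnd1, the p120 catenin that holds cadherins at the membrane, was at 10.24 in Ras, 10.15 in Myc and 10.58 in NeuT against 11.35 in control, each with an adjusted p under 0.05, and at 11.18 in Src (adjusted p = 0.417). Ctnnb1, which encodes beta-catenin, was at 9.90 ± 0.28 in Ras against 10.63 ± 0.19 in control (-0.73 ± 0.12, adjusted p = 0.000358). Ctnna1, the alpha-catenin that links to actin, was at 10.37 in Ras and 10.79 in control (-0.42 ± 0.13, adjusted p = 0.0318), a call lost with median centring (adjusted p = 0.0920), with only the groups compared (0.126), and without control array 1 (0.123), control array 2 (0.125), Ras array 1 (0.0705) or Ras array 3 (0.0865). Alpha- and beta-catenin transcripts thus stayed bright in Ras, where Cdh1 was dim. Ctnna1 fell further in the other lines, to 9.79 in Myc, 10.05 in NeuT and 10.12 in Src (adjusted p = 5.68e-05, 0.000735 and 0.0020). Ctnnb1 was at 10.05 in Myc, 10.40 in NeuT and 10.26 in Src (adjusted p = 0.00202, 0.200 and 0.0349). Its Src call was lost in several settings, among them median centring (adjusted p = 0.0603). Nectin3, an adhesion molecule beside cadherins, did not follow Cdh1. It was at 9.32 in Ras and 9.20 in control (adjusted p = 0.677), and fell to 6.34 in Myc, 6.54 in Src and 7.84 in NeuT.

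Other cadherins did not shift as a family, with medians of -0.00, 0.00, 0.00 and 0.11 (log2) in Ras, Myc, NeuT and Src. Of 20, 2 rose and 4 fell in Ras, 2 and 3 in NeuT, 0 and 3 in Myc, and 2 and 2 in Src. With 13.3% to 15.9% of all genes rising and 11.6% to 14.2% falling, these counts were near or below the background. Without Ras array 1 the count that rose in Ras was 4, and with only the groups compared 2 fell there. In Src 1 rose without control array 1, Src array 1 or Src array 3, and in Myc 1 rose without control array 3 or Myc array 1. Cdh3, the P-cadherin of basal epithelium, was at 5.91 ± 0.28 (SD, n = 3) in Ras against 8.58 ± 0.33 in control (-2.67 ± 0.22, adjusted p = 4.02e-07) and at 7.16 ± 0.42 in Myc (-1.42 ± 0.22, adjusted p = 0.000157). Cdh17, the liver-intestine cadherin, was at 8.79, 8.12 and 8.59 on the Ras arrays and at 4.53, 4.61 and 4.32 on the control arrays (4.01 ± 0.16, adjusted p = 2.7e-10). Its means in the other lines were 4.53 to 4.90, so it was bright in Ras alone among the 5 groups. The NeuT arrays had more Cdh6 (8.21 ± 0.06 against 6.44 ± 0.26, adjusted p = 3.91e-06) and more Cdh13, the membrane-anchored T-cadherin (8.32 ± 0.22 against 6.41 ± 0.08, adjusted p = 7.91e-09). Cdh13 also rose in Ras (0.74 ± 0.10) and Src (0.99 ± 0.10). All 3 Ras arrays carried the same Cdh13 value, 7.15, with an SD of 0, so the Ras SE rests on the other groups. The reason for this tie was not tested. Cdh11, a cadherin of mesenchymal cells, did not rise with Cdh2: it was at 6.08 in Ras and 5.65 in NeuT against 6.66 in control.

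Genes that work with Epcam were also lower in groups where Epcam changed little. Of 12 measured partners and proteases, 7 fell in Ras, 8 in Myc, 8 in Src and 5 in NeuT, and 1, 2, 1 and 0 rose, with medians of -1.04, -0.50, -0.63 and -0.17 (log2). Of all genes 14.2%, 12.7%, 12.2% and 11.6% fell and 13.3%, 15.9%, 14.2% and 15.2% rose, so the falls were above the background and the rises near or below it. With only the groups compared 5 fell in Myc. Counts that rose were unstable: 2 in Ras, 1 in Myc and 0 in Src without control array 3, 1 in Myc without any 1 Myc array, and 0 in Src without control array 2, NeuT array 2 or 3, Src array 2 or 3, or with the replicate block. Cldn7, a claudin that binds Epcam, was at 6.19 ± 0.44 (SD, n = 3) in Ras and 7.67 ± 0.33 in Src, against 10.49 ± 0.20 in control (-4.31 ± 0.20 and -2.82 ± 0.20, adjusted p = 1.04e-09 and 2.15e-07). It was at 10.36 in Myc and 10.43 in NeuT. The tight junction gene Cldn1 was lower in every line group, at 4.90 in Ras and 8.33 to 8.44 in the others against 10.45. St14, the protease matriptase, and Spint2, an inhibitor of such proteases, fell most in Ras (-3.83 ± 0.14 and -3.00 ± 0.10). Both were also lower in the other line groups. The St14 calls in Myc and NeuT were lost with only the groups compared (adjusted p = 0.0652 and 0.0859), and that in NeuT also without control array 1 (0.0599) or 2 (0.0538).

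Keratin filaments are the epithelial counterpart of vimentin. Krt8 was at 7.72, 7.73 and 7.32 on the Ras arrays and at 12.92, 12.95 and 12.78 on the control arrays (-5.29 ± 0.10, adjusted p = 1.31e-13). In NeuT, where Vim rose, it was at 12.86 ± 0.04 (adjusted p = 0.887). Its partner Krt18 varied between Ras arrays, at 9.83, 6.58 and 5.80, with 12.25 ± 0.31 in control (-4.84 ± 0.68, adjusted p = 7.5e-05). Krt19 stayed bright in Ras, at 9.55, 8.43 and 9.53, though lower than the 11.81 ± 0.28 in control (-2.64 ± 0.25, adjusted p = 1.78e-06). Ras array 1 was nearest to control for Krt18, while its Cdh1, Epcam, Cdh2 and Vim were close to those of the other Ras arrays. Lmna, which encodes nuclear lamins, rose in NeuT (1.12 ± 0.14, adjusted p = 4.19e-05) and Myc (0.68 ± 0.14, adjusted p = 0.00229). Of 12 intermediate filament genes, 1 rose and 5 fell in Ras, 1 and 4 in Myc, 3 and 1 in NeuT and 2 and 4 in Src. Among all genes 13.3% to 15.9% rose and 11.6% to 14.2% fell, so rises of 1 or 2 genes were near the background. The count that rose in Ras was 0 without Ras array 2 and 2 without Ras array 3. In NeuT 2 fell without control array 3 or any 1 Ras array. In Src 0 rose without Src array 1 or 2, and 1 without Src array 3, any 1 control array, Myc array 2, or NeuT array 1 or 2.

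Of the factors known to repress Cdh1, both Zeb genes were highest in Ras. Zeb1 was at 8.81, 8.52 and 8.95 on the Ras arrays and at 6.41, 6.32 and 6.79 on the control arrays (2.25 ± 0.13, adjusted p = 8.59e-09). In Myc and Src, where Cdh1 also fell, Zeb1 was lower than control, at 5.91 and 5.86 (adjusted p = 0.00223 and 0.00167). Both levels were under the dim mark. Zeb2 was at 8.26, 8.25 and 8.36 in Ras and at 5.63, 5.78 and 7.32 in control, the last being control array 3. Its log2 difference was 2.05 ± 0.31 (adjusted p = 0.000139), and 2.59 without that array. Prrx1, a homeobox factor of mesenchyme, was at 10.04 ± 0.66 (SD, n = 3) in Ras and 6.23 ± 0.11 in control (3.81 ± 0.22, adjusted p = 1.35e-08). Twist1 was at 8.20 in Ras, 7.66 in NeuT and 7.32 in Src against 5.82 in control, with adjusted p of 7.19e-09, 1.83e-07 and 1.67e-06, and at 5.94 in Myc. Snai2, which encodes Slug and is also a basal epithelial gene, did not follow Cdh1: it was highest in Src (10.18 against 8.66, 1.52 ± 0.13), at 8.76 in Ras, and lower in NeuT (-1.40 ± 0.13) and Myc (-2.71 ± 0.13). Snai1 had means of 6.92 to 7.16 and passed in no line group (adjusted p from 0.0591 to 0.225). In NeuT, where Cdh2 and Vim rose, Zeb1 was at 6.36 (adjusted p = 0.458) and Zeb2 at 6.22 (adjusted p = 0.968). The Zeb2 comparison depends on control array 3. NeuT arrays were at 6.47, 6.10 and 6.08, above control arrays 1 and 2 (5.63 and 5.78) and below control array 3 (7.32).

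Of 14 measured transition factors 6 rose and 2 fell in Ras, 3 and 1 in NeuT, 2 and 5 in Myc and 3 and 2 in Src, with medians of 0.36, -0.04, -0.09 and -0.01 (log2). With 13.3% of all genes rising in Ras and 14.2% to 15.9% in the others, the rises in NeuT, Myc and Src were near the background, as were falls of 1 or 2 genes (11.6% to 14.2% of all genes fell). The Ras count that fell was 1 without any 1 array other than control array 3 or Ras array 2. In NeuT 1 rose without any 1 NeuT array or Src array 1, 2 fell without control array 3, and 3 fell without Ras array 1 or 2. In Myc 1 rose without control array 3, Myc array 1 or Myc array 3. In Src 4 fell without Ras array 1 or 2 and 1 without Src array 1 or 2.

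Regulators that keep cells epithelial fell in 11 of 14 members in Ras and rose in 0, with a median of -1.03 (log2). Esrp1, a splicing factor of epithelial cells, was at 4.81 ± 0.08 (SD, n = 3) in Ras and 9.61 ± 0.35 in control (-4.80 ± 0.15, adjusted p = 2.36e-11). Grhl2, a transcription factor of epithelia, was at 5.59 ± 0.21 against 8.29 ± 0.33 (-2.69 ± 0.14, adjusted p = 3.2e-09). The ETS factor Ehf (-3.23 ± 0.14) and the apical trafficking gene Rab25 (-3.46 ± 0.17) fell as well. In the other line groups Grhl2 was between 8.48 and 8.82 and Esrp1 between 9.27 and 10.14. Rab25 was between 9.35 and 10.24 there, with 9.66 in control. Ehf was lower in these groups too: -1.07 ± 0.14 in Myc, -1.08 ± 0.14 in NeuT and -0.42 ± 0.14 in Src. Their adjusted p were 4.48e-05, 4.88e-05 and 0.0394. The Src call was lost in several settings, among them quantile normalization (adjusted p = 0.0696). Ovol2, a repressor of mesenchymal genes, had means of 6.26 to 6.67, near the dim mark. In NeuT 3 rose and 4 fell, in Myc 2 and 4, and in Src 2 and 6, with medians of -0.10, -0.21 and -0.25. Of all genes 14.2% fell in Ras and 11.6% to 12.7% in the others, and the rises of 2 or 3 genes were near the 14.2% to 15.9% of all genes that rose. In Src 2 fell without control array 1, control array 2 or Src array 1, and 3 without Src array 2 or 3. In NeuT 1 rose without control array 3 or NeuT array 3, and in Myc 1 rose without control array 2 or 3, Myc array 1 or 2, NeuT array 1, or Src array 1 or 3.

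**Figure D4:**
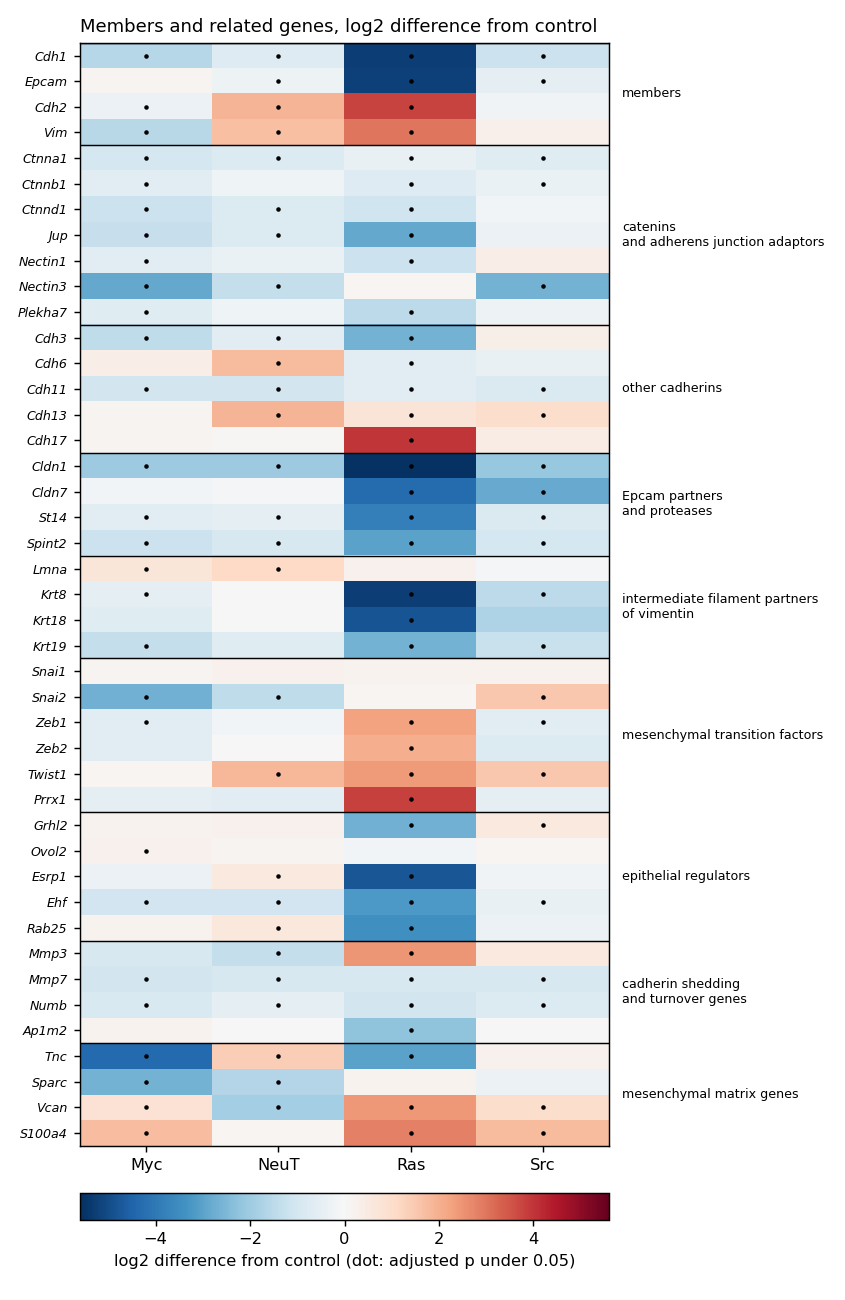
Log2 difference from control (colour, from blue for lower to red for higher) of the 4 genes and of related genes picked from each list by 1 rule (rows, by list) in the 4 oncogene groups (columns). Dots mark an adjusted p under 0.05. In the Ras column Cdh1, Epcam, Cldn7, Krt8 and Esrp1 are lower (-4.31 to -5.29) and Cdh2, Vim, Zeb1 and Cdh17 higher (2.25 to 4.01).

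Genes of cadherin cleavage and turnover gave 1 of 13 that rose and 6 that fell in Ras, 0 and 4 in Myc, 0 and 5 in NeuT and 0 and 5 in Src, with medians of -0.27, -0.27, -0.11 and -0.32 (log2). Of all genes 13.3% to 15.9% rose and 11.6% to 14.2% fell. With only the groups compared 3 fell in Ras, and without control array 3, 8 fell in Src. Without Ras array 2, 1 rose in Myc and in NeuT, and without Ras array 3, 1 rose in NeuT. Mmp3, a stromelysin that can cut E-cadherin, was at 9.94, 10.29 and 7.91 in Ras against 6.92, 7.54 and 6.28 in control (2.47 ± 0.46, adjusted p = 0.000944). Ras array 3 was thus close to the highest control array. Ap1m2, a clathrin adaptor subunit of epithelial sorting, was at 5.32 ± 0.08 (SD, n = 3) in Ras and 7.58 ± 0.16 in control (-2.27 ± 0.12, adjusted p = 4.35e-09), and between 7.60 and 7.78 in the other lines. Numb, an endocytic adaptor, was lower in all 4 line groups, at 7.67 to 8.13 against 8.68.

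Matrix genes often read together with Vim did not move as 1 group. Of 12 measured, 4 rose and 2 fell in Ras, 1 and 3 in NeuT, 2 and 4 in Myc and 2 and 3 in Src, with medians of 0.05, -0.03, -0.04 and 0.08 (log2). Of all genes 13.3% to 15.9% rose and 11.6% to 14.2% fell, so counts of 1 or 2 genes were near the background. The 4 that rose in Ras, the 4 that fell in Myc and the 3 that fell in NeuT and in Src were above it. Without Ras array 2, 2 rose in NeuT. S100a4, a calcium-binding protein of motile cells, was at 12.28 ± 0.22 (SD, n = 3) in Ras and 9.46 ± 0.29 in control (2.82 ± 0.15, adjusted p = 4.99e-09), and it also rose in Myc (1.74 ± 0.15), where Vim fell. In NeuT, where Vim rose, it was at 9.56 (adjusted p = 0.74). Tnc, the matrix protein tenascin C, was lower in Ras (-2.99 ± 0.17) and in Myc (-4.36 ± 0.17) and rose in NeuT (1.39 ± 0.17). Sparc, a collagen-binding protein, was at 11.59 in Ras and 11.39 in control, and Vcan, a matrix proteoglycan, rose in Ras (2.42 ± 0.21) and was lower in NeuT (-1.91 ± 0.21).

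Markers of other cells were read beside the rise of Vim and Cdh2. Over 12 fibroblast markers the array means were 5.55 to 5.85 in Ras, 5.27 to 5.30 in NeuT and 5.59 to 5.97 in control, with 2, 1 and 3 markers at or above 6.47. Control arrays 1 and 2 alone were at 5.59 to 5.64, so the Ras range reached above them. The brightest, Dcn, which encodes the matrix protein decorin, was at 8.17 in Ras, 5.42 in NeuT and 7.04 in control (6.86 in control arrays 1 and 2). The next brightest, Pdgfra and Mfap5, were slightly lower in Ras, at 6.52 and 6.43, against 6.77 and 6.54 in control arrays 1 and 2. The median log2 difference of the fibroblast markers in Ras was 0.04. Of the fibroblast markers 1 rose and 2 fell in Ras, and 0 rose and 3 fell in NeuT, where 13.3% and 15.2% of all genes rose and 14.2% and 11.6% fell. Endothelial marker means were 6.19 to 6.34 in Ras, 5.63 to 5.65 in NeuT and 5.56 to 5.62 in control arrays 1 and 2 (up to 6.60 with control array 3), and 3 of 12 rose in Ras and 0 in NeuT. Cd34 was at 11.01 in Ras and 6.19 in control, and Flt1 at 7.79 and 6.12, while Emcn was at 4.31 in Ras. Leukocyte marker means were 5.68 to 5.74 in Ras and 5.62 to 5.78 in NeuT, with 3 of 12 markers at or above 6.47 in each. The part of these markers in the Ras and NeuT levels of Vim and Cdh2 was not tested.

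The genes whose pattern was most like each of the 4 were taken by Pearson r over the 15 arrays among 10944 genes with a group mean at or above 6.47. Arrays of a group share their oncogene, so the points are not independent and r is given as a description, with no p. Cdh1 was closest to Fermt1, which encodes the integrin activator kindlin-1 (r = 0.993), St14 (0.983), Mpzl2 (0.983) and Nipal2 (0.982), and most opposed to Cfap69 (-0.976) and Ccl20 (-0.973). Fermt1 was at 10.27 in control, 5.20 in Ras and 9.26 to 9.74 elsewhere. Cdh2 was closest to Mcpt8 (0.984), Uhrf1bp1l (0.971), Slc41a2 (0.971) and Scrn1 (0.970), and opposed to the basal keratin Krt14 (-0.971) and to Ddit4l (-0.962). Krt14 was at 11.73 in control, 8.31 in NeuT and 6.04 in Ras. Epcam was closest to the simple keratin Krt7 (0.992), S100a14 (0.990), Ap1m2 (0.988) and Rnf130 (0.987), and opposed to Lilr4b (-0.995) and Csgalnact2 (-0.995). Vim was closest to Thsd7a (0.978), the receptor gene Tlr4 (0.954), Slc41a2 (0.950) and Cyb5r3 (0.944), and opposed to Ivns1abp (-0.965) and Sulf2 (-0.960). Slc41a2 was picked for both Cdh2 and Vim. With Spearman's rho or with the 5 group means, 0 or 1 of these 6 genes was picked again for each of the 4, and without control array 3 between 4 and 6 were.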

How the data were processed

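The authors deposited log2 values with near equal medians on all arrays. The submitters' processing notes name RMA and Affymetrix Expression Console 1.1 without a role. Background settings and the build were not given in the sources used here. Of 35556 probe sets, 21789 had 1 gene in the platform annotation. Each gene kept its brightest probe set by mean. Group means of all 15 arrays were fitted with limma 3.58.1 in R 4.3.3 (lmFit, eBayes). P-values are two-sided, Benjamini-Hochberg adjusted over 19938 genes within each contrast, and called under 0.05. Errors of differences are SE, those of levels SD. The fit was tested on simulated data. Precision is limited by 3 arrays a group.

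The 4 genes and all gene lists were chosen with earlier results of these data known. Named from each of 8 lists were the 4 members with the smallest p of the F test over 5 groups, plus Ctnna1, Ctnnb1, Ctnnd1, Jup, Cdh3, Cdh11, Cldn7, Snai1, Snai2, Zeb1, Zeb2, Twist1, Grhl2, Ovol2, Esrp1 and Krt8. Named from marker lists were the 3 members with the highest value on any array, as far as a result needed them. Likeness picks were 4 alike and 2 opposed genes, with predicted genes passed over. Some list genes are not reported here. Alternatives were other scalings, filters, probe set rules, variance models, a replicate block and leaving out each array. Figures used Python 3.11.15 with matplotlib 3.10.9.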

Additional observations from a re-analysis of the deposited data

Results flagged for a closer look

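The oncogene groups' changes against the same controls differed by the test of the difference itself (limma, adjusted p under 0.05) in 22 of 24 pairings. Of all genes, 14.9% to 28.4% were called in these pairs of groups. The values below are log2 differences, first group minus second. For Cdh1 they were -0.87 for Myc against NeuT, 3.67 for Myc against Ras, 4.54 for NeuT against Ras, 0.51 for NeuT against Src and -4.03 for Ras against Src. For Cdh2 they were -2.23 for Myc against NeuT, -4.10 for Myc against Ras, -1.86 for NeuT against Ras, 2.11 for NeuT against Src and 3.98 for Ras against Src. For Epcam they were 0.45 for Myc against NeuT, 5.39 for Myc against Ras, 0.72 for Myc against Src, 4.94 for NeuT against Ras, 0.27 for NeuT against Src and -4.67 for Ras against Src. For Vim they were -3.24 for Myc against NeuT, -4.56 for Myc against Ras, -1.84 for Myc against Src, -1.32 for NeuT against Ras, 1.40 for NeuT against Src and 2.72 for Ras against Src. Cdh2 and Vim each fell against control in Myc and rose in NeuT and Ras, the Cdh2 fall being the one that several settings did not keep. Groups of 3 arrays were too small for a test of single outlying arrays.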

How the results depend on the processing

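The 40 differences of the 4 genes were recomputed under 24 settings. In 7 of them at least 1 setting changed the side of the threshold, and in 0 the direction. Only other scalings, array weights and leaving out an array of a compared group could move a difference itself. The remaining settings changed only the variance or the adjustment, so an unchanged direction there is no test. Cdh1 in Myc against control, for example, stayed at -1.58 in all of these. Cdh1 in Myc against Src passed with quantile normalization (-0.44), array weights (-0.39) and only the groups compared (-0.36), and ranged from -0.42 to -0.32 with 1 array left out. Cdh2 in Myc against control lost its call with median centring (-0.27), quantile normalization (-0.25) and only the groups compared (-0.32), and ranged from -0.40 to -0.23. Cdh2 in Src against control gained one with array weights (-0.24). Epcam in NeuT against Src lost its call with quantile normalization (0.15), and ranged from 0.24 to 0.31. Vim in Src against control gained one with quantile normalization (0.32), without dim genes, with averaged or single probe sets (0.27 in each) and with array weights (0.21), and ranged from 0.20 to 0.31. Vim has 1 probe set, so the filter and the probe set rules left its own values unchanged. Only the other features in the fit and the adjustment differed. Ranges with 1 array left out were 0.45 to 0.57 for Cdh1 in NeuT against Src and -0.36 to -0.23 for Epcam in NeuT against control. The cause of these shifts was not tested. Same-numbered arrays deviated from their group means together (r over 0.1) in 3 of 30 pairs. With 3 arrays a group this cannot show whether the samples were paired, and the main fit used no pairing. With the replicate number as a block no call of the 4 genes changed (Cdh1 in Ras against control -5.25); of the related genes named, Ctnnb1 and Ehf in Src and Cdh3 in NeuT lost theirs. Median centring moved the median of all genes in Ras against control from 0.02 to 0.10. Levels under 6.47 limit Cdh1 and Epcam in Ras and Cdh2 in control, Myc and Src.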
